A study of Mus musculus with 4 samples.

Results

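The gene array held 7 genes of the cell cycle and of the response to DNA damage, and these are described here. They are Cdkn1a, Gadd45a, Btg2, CCng1, CCnd1, Mcm6 and Atf3, chosen by name from the 84 genes of an RT-PCR array for mouse nephrotoxicity, and CCng1 and CCnd1 are the array's spellings of Ccng1 and Ccnd1. The RNA came from MCT cells, a murine epithelial cell line that is labelled as derived from the convoluted tubule of the kidney. There was 1 sample for each of 4 conditions, all grown in DMEM with serum. Control cells received no treatment. The treated cells received 10 μg/ml of CsA (cyclosporine A, a calcineurin inhibitor), 10 μM of SB203580, which inhibits p38 MAPK, or 1 μM of 11R-VIVIT, a cell-permeable peptide inhibitor of NFAT that the labels call 11R. The study's methods give 24 h as the time for these treatments, without a separate time for the array. All 4 samples come from this 1 cell line, so neither kidney tissue nor a second line is represented. CsA blocks calcineurin, the phosphatase that activates NFAT in T cells, and the comparisons ask how CsA, an NFAT inhibitor and a p38 inhibitor each change kidney epithelial cells.

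Cells that sense DNA damage stabilise the transcription factor p53, which switches on genes that halt the cell cycle and help repair. Cdkn1a encodes p21, an inhibitor of cyclin-dependent kinases and the best known p53 target. Gadd45a, Btg2 and Ccng1 are further p53 targets. Gadd45a encodes a stress protein that binds cell cycle and repair proteins and can activate the p38 pathway through an upstream kinase. Btg2 encodes an antiproliferative protein that recruits the machinery that removes mRNA tails, and Ccng1 encodes cyclin G1, which takes part in the feedback on p53. Ccnd1 encodes cyclin D1, which growth factors induce and which drives cells through G1 with CDK4 and CDK6. Mcm6 encodes a subunit of the MCM helicase that opens DNA at replication origins. Atf3 encodes a transcription factor of the ATF/CREB family that many kinds of cell stress induce quickly. In the kidney, p21 and Atf3 are known as genes that rise after tubular injury.

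The promoters of 5 of the genes are shown because the families of factors that act on them (p53, CREB and ATF proteins, E2F) define how this group of genes is usually read. Each line holds the 250 bases before a transcription start in RefSeq (build GRCm38.p6), written 5′ to 3′ on the strand of the gene. Capitals mark exact matches to the p53 half-site consensus, to the CRE with the letters TGACGTCA, and to the E2F site with the letters TTTGGCGC, TTTCCCGC, TTTCGCGC or TTTGCCGC, searched on both strands. A near match was not sought and stays in lower case.
Cdkn1a, upstream start, chr17:29090729-29090978, plus strand: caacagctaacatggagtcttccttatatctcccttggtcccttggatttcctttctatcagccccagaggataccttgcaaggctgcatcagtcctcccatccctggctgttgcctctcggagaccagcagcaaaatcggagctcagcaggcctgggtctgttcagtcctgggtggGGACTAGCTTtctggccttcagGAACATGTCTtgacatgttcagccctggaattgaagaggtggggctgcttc
Gadd45a, chr6:67037408-67037657, minus strand: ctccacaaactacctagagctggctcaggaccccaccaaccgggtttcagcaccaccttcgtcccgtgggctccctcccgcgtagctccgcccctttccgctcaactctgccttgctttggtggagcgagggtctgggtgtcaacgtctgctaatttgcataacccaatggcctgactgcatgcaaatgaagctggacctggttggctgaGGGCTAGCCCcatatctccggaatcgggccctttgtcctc
CCng1, chr11:40755287-40755536, minus strand: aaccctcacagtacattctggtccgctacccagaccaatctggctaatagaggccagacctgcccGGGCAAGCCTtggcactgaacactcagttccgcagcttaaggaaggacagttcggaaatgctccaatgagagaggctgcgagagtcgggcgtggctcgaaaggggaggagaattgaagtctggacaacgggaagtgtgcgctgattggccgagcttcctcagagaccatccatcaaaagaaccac
Btg2, chr1:134079156-134079405, minus strand: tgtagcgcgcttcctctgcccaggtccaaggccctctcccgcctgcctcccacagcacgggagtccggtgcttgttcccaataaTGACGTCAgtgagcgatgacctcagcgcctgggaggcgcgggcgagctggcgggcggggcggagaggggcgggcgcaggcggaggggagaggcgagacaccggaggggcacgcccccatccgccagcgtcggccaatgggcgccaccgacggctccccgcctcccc
Mcm6, chr1:128359706-128359955, minus strand: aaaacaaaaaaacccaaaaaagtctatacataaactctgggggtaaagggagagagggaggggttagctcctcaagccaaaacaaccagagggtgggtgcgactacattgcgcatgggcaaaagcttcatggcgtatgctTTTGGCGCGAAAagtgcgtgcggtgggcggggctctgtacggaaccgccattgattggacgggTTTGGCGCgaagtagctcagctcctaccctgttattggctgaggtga

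The upstream start of Cdkn1a had 2 exact matches to the p53 half-site, at bases 178 to 187 and 200 to 209 of its line. Gadd45a had 1, at bases 211 to 220, and CCng1 had 1, at bases 66 to 75. Such a match is in 7.13% of 32851 RefSeq promoter windows of the same length. Btg2 had 1 CRE, at bases 85 to 92, a match that 1.55% of the windows hold. Mcm6 had 3 E2F matches, at bases 141 to 148, 145 to 152 and 204 to 211, and the first pair overlap on opposite strands. An E2F match is in 1.86% of the windows. Sequence was at hand for 6 of the 7 genes. The second start of Cdkn1a and the start of Atf3 held no exact match to these motifs. None of the 7 windows of these 6 genes held the exact letters of an AP-1 site (TGANTCA) or of a TATA box (TATAAA). Since near matches were not sought, variant sites may be present in any of them. A match of letters is a description and does not show that a factor bound there in MCT cells.

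The measure is the Ct, the number of PCR cycles needed to reach a set signal, so a lower Ct means more RNA. Each log2 change is the Ct of a gene minus that of Actb (beta-actin) in one sample, taken from the same difference in the sample compared with, and 1 unit is a doubling. The Ct of Actb lay between 17.8 and 18.1 in all 4 samples, a range of 0.32 cycles. All 7 genes were detected in all 4 samples, with Ct values from 22.8 (Mcm6) to 29.4 (Gadd45a), well before the limit of 35 cycles that 15 of the 84 array genes reached in at least 1 sample. Each condition has 1 sample, so replicate error is unknown, nothing was tested and it is not known which differences would repeat. Calls of raised or lowered genes were made from 2-fold on. Relative to the median of the 69 array genes detected in all samples, Actb shifted every CsA change by 0.50, every SB203580 change by 0.09 and every 11R-VIVIT change by -0.01 on the log2 scale. In bulk RNA such as this, fewer cells of a type and less RNA per cell cannot be told apart.

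CsA raised Gadd45a and CCng1 and lowered Cdkn1a, while the other 4 genes stayed within 2-fold. It thus raised 2 of the 7 genes (28.6%) where 20% of the 80 array genes with a value were raised, and lowered 1 (14.3%) where 16.2% were lowered. SB203580 raised 1 of the 7 genes, Gadd45a, and 15.2% of 79 array genes. It lowered 3 of the 7 (42.9%), namely Cdkn1a, Btg2 and CCnd1, and 8.86% of the array genes. 11R-VIVIT raised 0 of the 7 genes and lowered 1, Atf3, where it raised 5.26% and lowered 3.95% of 76 array genes. The shares with CsA stand near those of the array, and with 7 genes a single gene is 14.3% of the list. The median log2 change of the 7 genes was 0.41 with CsA, -0.22 with 11R-VIVIT and -0.61 with SB203580, against 0.20, -0.04 and 0.25 over the array genes detected in both samples. All 3 comparisons share the untreated sample, so an error in one of its wells enters each of them.

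**Figure D1:**
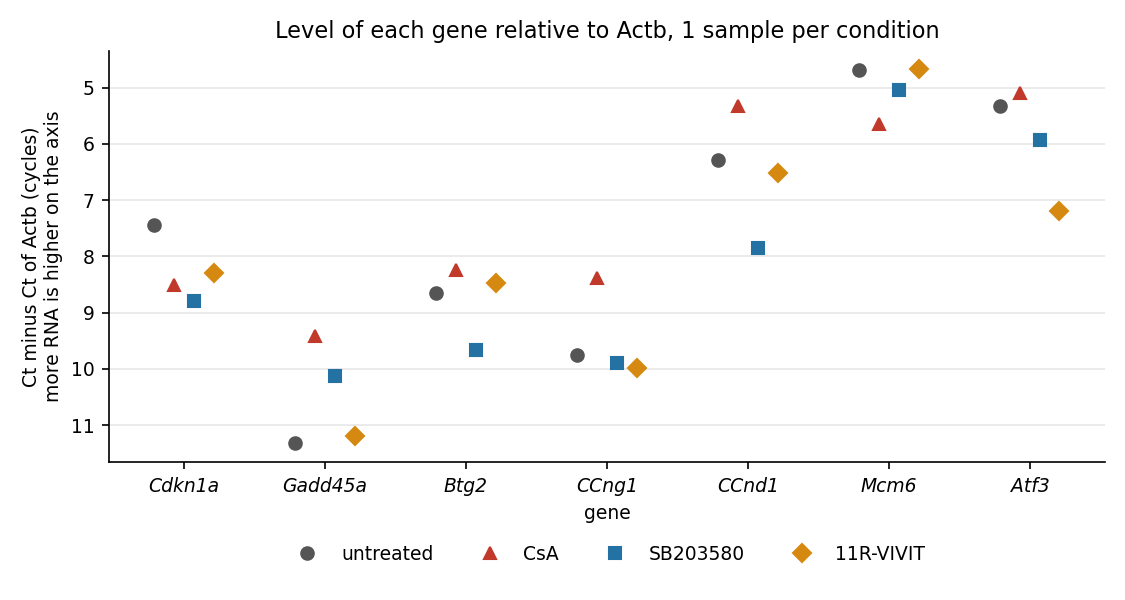
Level of the 7 genes in the 4 samples, as the Ct of the gene minus the Ct of Actb in cycles, with the axis turned so that more RNA is higher; each point is 1 sample, and levels are compared within a gene since each gene has its own assay. Cdkn1a was highest in untreated cells, Gadd45a and CCng1 were highest with CsA, CCnd1 was lowest with SB203580 and Atf3 was lowest with 11R-VIVIT.

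Gadd45a was the gene of the 7 that rose most. Its Ct was 29.4 in untreated cells, 27.3 with CsA, 29.3 with 11R-VIVIT and 27.9 with SB203580. The samples treated with CsA and SB203580 lay above the other two, which differed by 0.13 on the log2 scale. CsA raised Gadd45a 3.77-fold (log2 change 1.91), rank 6 from the highest of 70 array genes detected in both samples. SB203580 raised it 2.30-fold (log2 change 1.20), rank 6 of 72. The level with CsA was 1.64-fold that with SB203580, a difference below the 2-fold limit. Both calls also held relative to the array median and without a reference gene.

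Cdkn1a moved the other way, with its highest level in untreated cells. Its Ct was 25.6 in untreated cells, 26.3 with CsA, 26.4 with 11R-VIVIT and 26.6 with SB203580. All 3 treated samples were lower than the untreated one, with and without a reference gene. The fall was 2.57-fold with SB203580 (log2 change -1.36), rank 5 from the lowest of 72 genes. With CsA it was 2.08-fold (log2 change -1.06), close to the limit, and the change was -0.78 without a reference gene. With 11R-VIVIT the level was 1.80-fold lower (log2 change -0.85), short of 2-fold, yet rank 5 from the lowest of 70 genes. Relative to Actb, no pair of treated samples differed by more than 0.51 on the log2 scale, the value between 11R-VIVIT and SB203580, whereas relative to the array median CsA lay 0.72 below 11R-VIVIT.

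CCng1 stood apart in a single sample. Its Ct was 27.9 in untreated cells, 26.2 with CsA, 28.1 with 11R-VIVIT and 27.7 with SB203580. CsA raised it 2.58-fold (log2 change 1.37), rank 8 from the highest of 70 genes, and by 0.87 relative to the array median, which is below 2-fold. The level with SB203580 was near that of untreated cells, with a log2 change of -0.14 relative to Actb and 0.17 without a reference gene. With 11R-VIVIT the log2 change was -0.22.

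Btg2 was low with SB203580 and alike in the other samples. Its Ct was 26.8 in untreated cells, 26.1 with CsA, 26.6 with 11R-VIVIT and 27.5 with SB203580. SB203580 lowered it 2.03-fold (log2 change -1.02), rank 7 from the lowest of 72 genes, and the change was -0.71 without a reference gene. The log2 change with CsA was 0.41 relative to Actb and -0.09 relative to the array median, so its direction depended on the reference. With 11R-VIVIT it was 0.18.

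**Figure D2:**
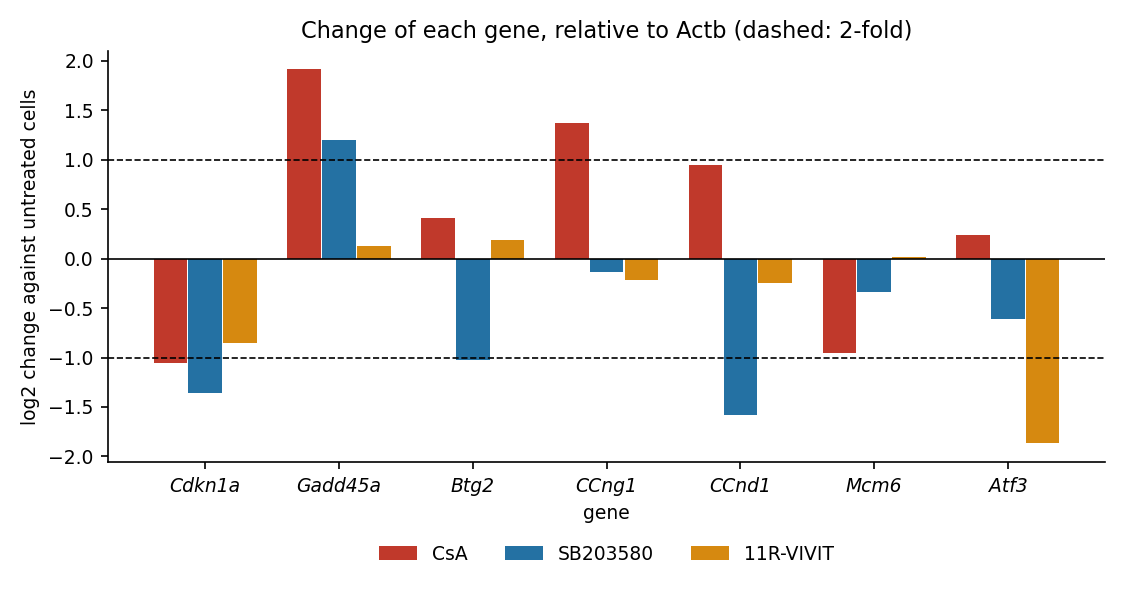
Log2 change of the 7 genes against untreated cells, relative to Actb, for each treatment; each bar is the difference between 2 single samples and has no error, and dashed lines mark 2-fold. Gadd45a rose with CsA (1.91) and SB203580 (1.20) while Cdkn1a fell with both (-1.06 and -1.36), and the 11R-VIVIT bar of Atf3 (-1.87) was the only one of that treatment past 2-fold.

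CCnd1, the gene of cyclin D1, had the widest range of the 7 genes. Its Ct was 24.4 in untreated cells, 23.2 with CsA, 24.7 with 11R-VIVIT and 25.7 with SB203580. CsA and SB203580 lay on opposite sides of the untreated sample. SB203580 lowered CCnd1 2.99-fold (log2 change -1.58), rank 2 from the lowest of 72 genes. The level with CsA was 1.93-fold that of untreated cells (log2 change 0.95), just short of the limit, and the change was 1.22 without a reference gene and 0.45 relative to the array median. With 11R-VIVIT the log2 change was -0.25.

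Mcm6, a subunit of the replication helicase, was nearly level in 3 samples. Its Ct was 22.8 in untreated cells, 23.5 with CsA, 22.8 with 11R-VIVIT and 22.8 with SB203580. CsA gave the lowest value, 1.94-fold below untreated cells (log2 change -0.96), and the change passed 2-fold relative to the array median (-1.45). With 11R-VIVIT the log2 change was 0.02, and with SB203580 it was -0.34. Its whole range over the 4 samples was 1.96-fold. With CsA, then, the values of the G1 cyclin and of the replication helicase subunit lay on opposite sides of untreated cells, neither past 2-fold relative to Actb.

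Atf3 was lowest with the NFAT inhibitor. Its Ct was 23.4 in untreated cells, 22.9 with CsA, 25.3 with 11R-VIVIT and 23.7 with SB203580. 11R-VIVIT lowered it 3.65-fold (log2 change -1.87), rank 1 from the lowest of the 70 array genes detected in both samples. The log2 change was -0.61 with SB203580. With CsA it was 0.24 relative to Actb and -0.26 relative to the array median, so CsA gave no settled direction. The level in the CsA sample was 4.29-fold that in the 11R-VIVIT sample.

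**Figure D3:**
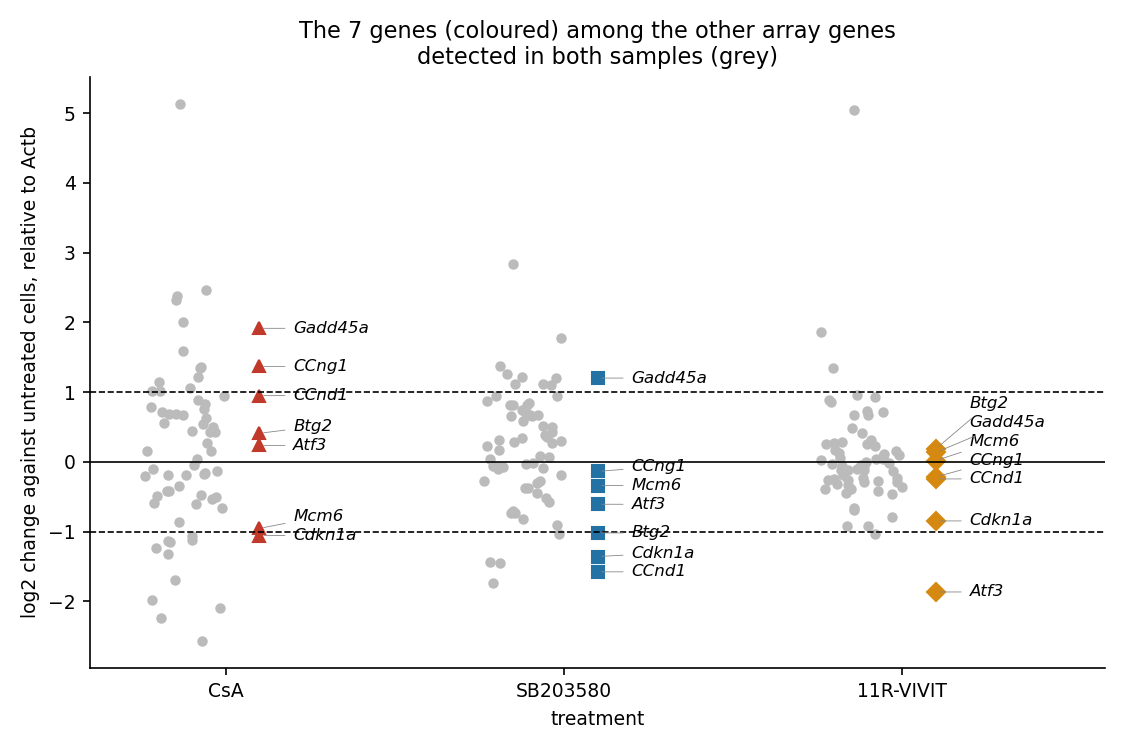
Log2 change against untreated cells, relative to Actb, of the 7 genes (coloured, named) and of the other array genes detected in both samples (grey), for each treatment; dashed lines mark 2-fold and each point compares 2 single samples. Atf3 was the lowest of all points with 11R-VIVIT, CCnd1 ranked 2 from the lowest with SB203580, and Gadd45a ranked 6 from the highest with both CsA and SB203580.

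The treated samples were also compared directly, which leaves out the untreated sample. Between CsA and SB203580, 3 of the 7 genes (42.9%) were at least 2-fold higher with CsA and 0 lower, against 12.3% higher and 18.5% lower among 81 array genes. CCnd1 was 5.77-fold higher with CsA, rank 2 of 76 genes. CCng1 was 2.84-fold higher and Btg2 2.69-fold higher, with ranks of 5 and 6. Relative to the array median these 3 calls held and Mcm6 was also called, at -1.02, so that 1 gene was lower, while the array shares became 8.64% higher and 27.2% lower. Relative to Actb, the level of Atf3 was 1.80-fold higher with CsA, and that of Mcm6 was 1.53-fold lower. For Cdkn1a the log2 difference was 0.30, and -0.11 relative to the array median.

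Between CsA and 11R-VIVIT, 4 of the 7 genes (57.1%) were at least 2-fold higher with CsA and 0 lower, against 22.8% higher and 15.2% lower among 79 array genes. Beside Atf3 these were Gadd45a (3.44-fold), CCng1 (3.00-fold) and CCnd1 (2.29-fold), of which CCnd1 stood at a log2 difference of 0.68 relative to the array median. Mcm6 was 1.96-fold lower with CsA, and its log2 difference was -0.97 relative to Actb and -1.48, past 2-fold, relative to the array median. With that reference only Gadd45a, CCng1 and Atf3 were called higher and Mcm6 was called lower, against 15.2% and 26.6% of the array genes. The log2 differences of Btg2 (0.22) and Cdkn1a (-0.21) were small relative to Actb, and their signs changed relative to the array median (-0.29 for Btg2) and without a reference gene (0.08 for Cdkn1a).

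Between SB203580 and 11R-VIVIT, SB203580 was at least 2-fold higher for 2 of the 7 genes and lower for 2 (28.6% each), against 13.8% and 7.5% of 80 array genes. Atf3 was 2.39-fold and Gadd45a 2.10-fold higher with SB203580. CCnd1 was 2.52-fold and Btg2 2.30-fold lower. The Gadd45a difference lay at the limit, at 1.07 on the log2 scale and at 0.97 relative to the array median, and the Btg2 difference was -0.89 without a reference gene, below 2-fold. CCng1 differed by 0.08 between these samples.

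The ratio of 2 of the genes within a sample needs no reference gene. The ratio of Gadd45a to Cdkn1a, a pair of p53 targets, was 7.85-fold higher with CsA than in untreated cells and 5.90-fold higher with SB203580. With 11R-VIVIT it was 1.97-fold higher. The ratio of CCng1 to Cdkn1a was 5.38-fold higher with CsA, 2.33-fold higher with SB203580 and 1.55-fold higher with 11R-VIVIT. For Btg2 to Cdkn1a the ratio was 2.76-fold, 1.27-fold and 2.05-fold higher with CsA, SB203580 and 11R-VIVIT. The untreated well of Cdkn1a enters all of these ratios. The ratio of CCnd1 to Mcm6 was 3.75-fold higher with CsA, 2.36-fold lower with SB203580 and 1.20-fold lower with 11R-VIVIT. These ratios are the same whichever reference is used, and each follows from the changes of its 2 genes given above. Not all pairs are shown, and another moved nearly as far, with Gadd45a to Mcm6 7.31-fold higher with CsA.

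**Figure D4:**
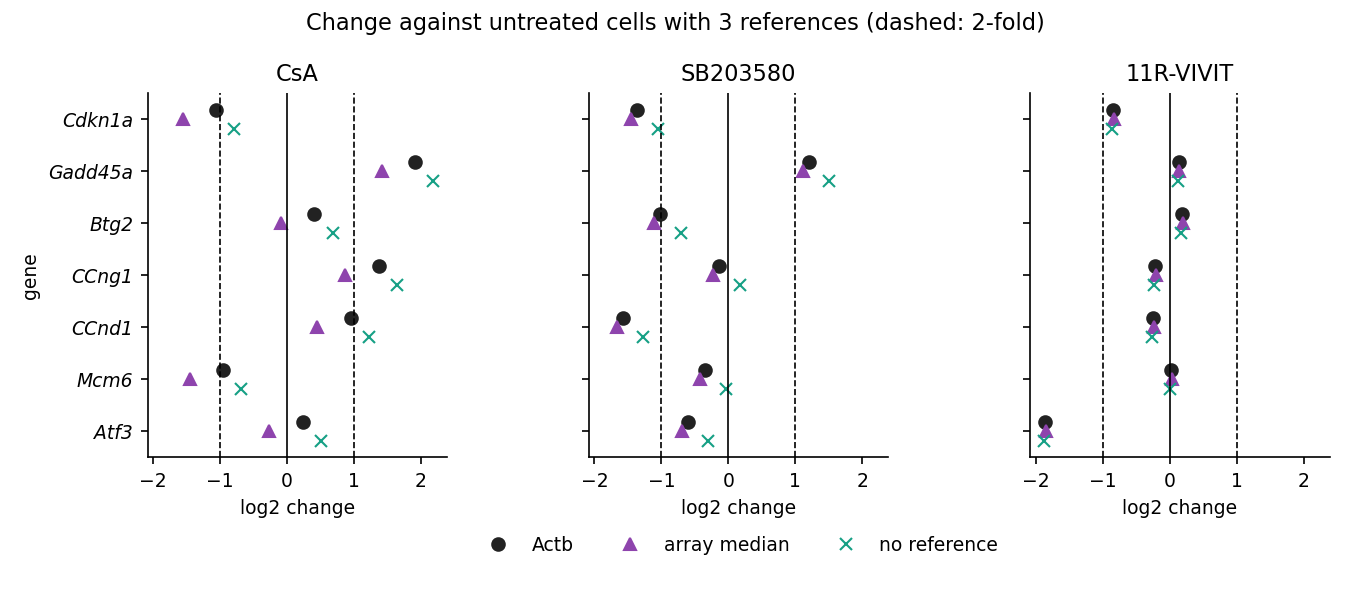
Log2 change of the 7 genes against untreated cells with 3 references, namely Actb, the median of the array genes detected in all samples, and none; each point compares 2 single samples and dashed lines mark 2-fold. With CsA the 3 values of each gene spread the most, and Btg2 and Atf3 lay above 0 with Actb (0.41 and 0.24) and below 0 with the array median (-0.09 and -0.26), while with 11R-VIVIT the points nearly coincide.

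Over the 4 samples, 6 of the 7 genes spanned at least 2-fold relative to Actb, as did 43 of the 69 array genes detected in all samples. The median range was 3.00-fold for the 7 genes and 2.34-fold for the 69. CCnd1 spanned 5.77-fold, and 6 of the 69 genes, itself included, spanned as much. Atf3 spanned 4.29-fold and Gadd45a 3.77-fold. Cdkn1a spanned 2.57-fold, and 29 of the 69 genes spanned as much.

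For each gene that spanned 2-fold, the array genes with the most similar changes over the 3 treatments were sought among the 62 others detected in all samples, by the root mean square difference of the log2 changes. Cdkn1a had the closest match, Cd24, with a difference of 0.12. The log2 changes of Cd24 were -1.12 with CsA, -1.03 with 11R-VIVIT and -1.44 with SB203580. Next came Ccs at 0.41. CCng1 was closest to Scd2 (0.19) and Tnfrsf12a (0.21), the gene of the receptor Fn14, whose log2 change was 1.15 with CsA and -0.07 with SB203580. Gadd45a was closest to Sprr1a (0.27) and to Vim (0.40). Btg2 was closest to Timp1 (0.38) and Ipmk (0.47). CCnd1 and Atf3 had no near match, with Odc1 at 0.79 and Ghr at 0.80 for CCnd1, and Abcb1b at 0.63 and Odc1 at 0.85 for Atf3. These distances rest on 3 changes that share the untreated sample, so they describe the samples and carry no test.

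Few other genes of these pathways were on the array. Of 13 further p53-responsive genes listed, 1 was measured, Igfbp3, which encodes a binding protein for insulin-like growth factors. Its Ct was 34.5 in untreated cells, 33.7 with CsA, 32.7 with 11R-VIVIT and 33.1 with SB203580, so all 4 values were late. It rose with SB203580 (log2 change 1.12) and with 11R-VIVIT (1.87), and its log2 change was 0.55 with CsA. Of 9 further proliferation genes, 1 was measured, Odc1, the enzyme that starts polyamine synthesis, and it stayed within 2-fold with each treatment, at -0.11 with CsA, -0.45 with 11R-VIVIT and -0.73 with SB203580 on the log2 scale. Of 10 further stress and early response genes, 4 were measured, of which 0 rose and 1 fell with CsA and with SB203580. This was Hmox1, the inducible heme oxygenase, with log2 changes of -2.24 and -1.74, and of 0.16 with 11R-VIVIT. With CsA, the log2 change of the immediate early gene Cyr61 was 0.69 and that of the chaperone gene Hsp90aa1 was -0.42. Nqo1 was not detected in untreated cells, and its log2 change with CsA was at least 0.61.

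Markers of cell type were few as well. Of the 7 proximal tubule markers listed, 3 were measured, and the Ct in untreated cells was 33.0 for Slc22a6, 32.8 for Gatm and 31.0 for Havcr1, all late. CsA lowered 2 of these 3, Havcr1 (log2 change -2.10) and Slc22a6 (-1.32), where it lowered 16.2% of the array genes. Gatm stood at 0.27, and the other treatments left all 3 within 2-fold. Havcr1 encodes KIM-1, which is also a marker of tubular injury, so it does not mark tubule identity alone. Of the 5 epithelial markers 1 was measured, Cd24, with an untreated Ct of 23.98. Of the 3 mesenchymal markers 2 were measured, Vim with an untreated Ct of 23.2 and Fn1 with 22.2. Of the 3 immune markers 1 was measured, Ccl3, at 33.4, and it stayed within 2-fold. Of the 4 distal tubule markers 2 were measured, Egf at 28.9 and Calb1 at 36.1, which is past the limit. Egf fell with CsA (log2 change -1.15) and SB203580 (-1.45), and its change with 11R-VIVIT was -0.11. With CsA, Vim rose (log2 change 2.47) beside Gadd45a and CCng1, Fn1 had a change of -0.13, and the summed level of both, which assumes that their assays amplify alike and moved with Vim, was 8.87% of Actb in untreated cells, 21.8% with CsA, 7.79% with 11R-VIVIT and 10.1% with SB203580. Cd24 fell with all 3 treatments beside Cdkn1a, from 1.72% of Actb in untreated cells to 0.79%, 0.63% and 0.84% with CsA, SB203580 and 11R-VIVIT. The part of such shifts in the changes of the 7 genes was not tested.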

How the data were processed

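The data are an RT-PCR array (PAMM-094Z, SYBR green) on cDNA of total RNA from MCT cells, with 1 sample for each of 4 conditions, so the number of samples limits the precision. The authors deposited 1 Ct per gene and sample, without normalization, for 84 genes and Actb. A second deposited table holds the authors' fold changes against the untreated sample and was not used. The instrument, the threshold and any pooling are not given in the sources used here. Samples were assigned by their labels, and 0 columns belonged to other samples.

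Log2 changes were calculated by the delta-delta Ct method with an amplification base of 2. The study's methods name the housekeeping genes of the array as the reference, and Actb is the one in the table used here. A Ct of 35 or later was set to 35, and a change against it is a bound that was called only in the direction it bounds. Calls were made at 2-fold, over all genes with a value. No test was possible. The arithmetic was checked on a simulated column with known changes and no noise, which says nothing about measurement error. The alternatives were the array median or no reference gene, a Ct limit of 32 or none, an amplification base of 1.9 and thresholds of 1.5-fold and 3-fold. The 7 genes and the lists were chosen with earlier results of these data known. The genes named beyond them are, by rule, the 2 most similar array genes of each gene that spanned 2-fold and all listed genes on the array.

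All 7 gene symbols matched RefSeq (GRCm38.p6) without regard to case, and promoter sequences were read from RefSeq for 6. No coordinates of the assays are given. Calculations used Python 3.11.15, numpy 2.4.6 and pandas 2.3.3, and figures matplotlib 3.10.9.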

Additional observations from a re-analysis of the deposited data

How the results depend on the processing

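Each log2 change of the 7 genes against untreated cells was recalculated with the array median, without a reference gene and with an amplification base of 1.9. Of these 63 values, 53 held both direction and call, 5 dropped under 2-fold, 2 reached it and 3 changed sign. Of 63 such values for the differences between treated samples these numbers were 53, 4, 2 and 4. Each change is counted once per setting, and a setting moves all 7 genes of a comparison together, so these values are not independent. The base cannot change a sign, and a Ct limit of 32 or none could not move any of the 7 genes, whose Ct values are all earlier. Relative to the array median, CsA raised 1 gene (Gadd45a) in place of 2 and lowered 2 (Cdkn1a and Mcm6) in place of 1. The shares over the array moved the same way, to 10% raised and 25% lowered. Without a reference gene and with an amplification base of 1.9, CsA lowered 0 genes, since Cdkn1a stood at -0.78 and -0.98. Of the array genes, CsA lowered 8.75% without a reference gene and 13.75% with the base of 1.9. With that base, Btg2 stood at -0.94 with SB203580 and the Gadd45a difference between SB203580 and 11R-VIVIT at 0.99. SB203580 thus lowered 2 genes in place of 3 without a reference gene and with the base of 1.9. In each of these settings it lowered 6.33% of the array genes. At 1.5-fold, CsA lowered 2 genes and 11R-VIVIT lowered 2 (Atf3 and Cdkn1a), where they lowered 22.5% and 11.8% of the array genes. At 3-fold, CsA raised 1 gene and lowered 0, where 10% of the array genes were raised and 7.5% lowered. SB203580 raised 0 and lowered 0 at 3-fold, where only 2.53% of the array genes were raised and 1.27% lowered. The shifts by reference and threshold follow from their construction. No call that was made relative to Actb turned to the opposite direction under these alternatives. No paired analysis was possible because each condition has 1 sample.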
